A study of Mus musculus with 68 samples.

Results

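The respiratory chain genes described here are the protein-coding genes of the count table whose symbol begins with mt-, Nduf, Uqcr, Atp5 or Cox4 to Cox8, together with the Sdh genes Sdha, Sdhb, Sdhc and Sdhd. The rule gave 110 genes of 56748 in the table, 21970 of which are protein-coding. Of the 110, 97 lie on nuclear chromosomes and 13 on the mitochondrial chromosome, and both sets are described apart. The nuclear set holds 45 genes of complex I (7 core subunits, 30 accessory subunits and 8 assembly factors), 4 of complex II, 8 of complex III, 20 of complex IV and 18 of complex V, plus 2 near-identical extra copies (Cox5b-ps and Ndufb11b). The mitochondrial set holds 7 genes of complex I, 1 of complex III, 3 of complex IV and 2 of complex V. The name rule does not reach every gene of the chain: Cyc1 of complex III and Cycs, the mobile electron carrier, are given with the other pathway genes.

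The study measured RNA in heart, lung, kidney and liver of wild-type C57BL/6J female mice of 10 weeks, in 68 libraries. Under isoflurane, mice received either epidermal growth factor (Egf) at 1 mg/kg in PBS or 50 to 60 µL of PBS alone as the vehicle, by retro-orbital injection, and organs were taken after 2 h or 6 h, within 4 min; a further 3 mice were untreated. Each organ has 4 Egf libraries and 3 vehicle libraries per time and 3 untreated libraries. The libraries were made from poly(A) RNA and are not strand-specific, and the labels do not state whether the same replicate number in different organs is the same mouse.

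The respiratory chain sits in the inner mitochondrial membrane. Complexes I and II pass electrons from NADH and succinate to ubiquinone, complex III passes them on to cytochrome c, complex IV reduces oxygen, and complexes I, III and IV pump the protons that drive complex V, the ATP synthase. Complexes I, III, IV and V are built from subunits of both genomes, complex II from nuclear subunits alone, and several complex IV subunits exist as a common and a muscle, lung or testis form. Heart muscle works almost wholly by oxidative metabolism and is among the tissues richest in mitochondria.

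Counted reads per library ran from 13271813 to 24972005, with organ medians of 18181981 (heart), 18083562 (lung), 17301523 (kidney) and 17333162 (liver). The organ labels were matched by cell markers: summed cardiomyocyte markers were 43200 to 43500 CPM (read counts scaled to a common library size) in untreated heart, hepatocyte markers 130000 to 143000 CPM in untreated liver, tubule markers 30900 to 33800 CPM in untreated kidney and lung markers 56300 to 62800 CPM in untreated lung. Several heart libraries also held markers of another organ, among them all 3 untreated ones (hepatocyte markers at 16800, 1250 and 14200 CPM, tubule markers at 5.01, 1510 and 7.46 CPM in replicates 1 to 3), and so did replicate 3 of lung Egf 6 h (hepatocyte markers at 28900 CPM). Cells of another organ in the sample and reads from another library cannot be told apart here. In bulk RNA, fewer cells of a type and less RNA per cell cannot be told apart either.

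A stretch of the mitochondrial chromosome has a near-identical copy on chromosome 1, which holds 6 of the 13 mt- genes whole or nearly so. The mouse mitochondrial genes mt-Co2, mt-Atp8, mt-Atp6, mt-Co3, mt-Nd3 and mt-Nd4l lie next to each other at positions 7013 to 10173 of the chromosome (mm39). In the GENCODE M21 transcripts, from which the sequences below were read, the chromosome 1 genes Gm28661, Gm10925, Gm28437, Gm28438 and Gm10222 were 100% identical to mt-Co2, mt-Atp6, mt-Co3, mt-Nd3 and mt-Nd4l over 98.3% to 99.9% of their length, while mt-Atp8 lies within the stretch and has no annotated copy of its own. The copy also spans part of both neighbours: Gm28439 (chr1:24650616-24651491, minus strand, mm39) was 100% identical over 63.6% of mt-Nd4, and Gm29216 matched 31.3% of mt-Co1. The sequence of mt-Nd4l, a core subunit of complex I, is shown because its copy Gm10222 (chr1:24651488-24651781, minus strand, mm39) holds the same 294 bases without a difference, so that a short read from either gene has no base by which to place it:

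mt-Nd4l: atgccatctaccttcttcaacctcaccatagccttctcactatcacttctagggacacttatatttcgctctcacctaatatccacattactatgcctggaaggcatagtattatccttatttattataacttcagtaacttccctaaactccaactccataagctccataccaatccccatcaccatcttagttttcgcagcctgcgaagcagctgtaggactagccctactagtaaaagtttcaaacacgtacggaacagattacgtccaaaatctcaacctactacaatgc

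The copy ends within mt-Co1, the catalytic subunit of complex IV, at positions 5328 to 6872 of the mitochondrial chromosome. The edge of the copied part is shown, with the bases that differ between both genes in capitals. It spans bases 1054 to 1094 of the 1545 of mt-Co1 and bases 1 to 41 of Gm29216 (chr1:24654787-24655278, mm39), and holds 6 differences. The 451 bases after it are the same in both genes:

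mt-Co1: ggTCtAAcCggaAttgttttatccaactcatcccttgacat
Gm29216: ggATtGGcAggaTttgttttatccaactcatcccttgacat

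In untreated organs the 6 genes of the stretch stood far below mt-Co1. Levels between genes are given as CPM per kb of gene length, as mean ± SD of the 3 untreated libraries of an organ. In heart, mt-Co1 stood at 51600 ± 19000 CPM per kb and mt-Co2, the next complex IV gene on the chromosome, at 3420 ± 2100 CPM per kb. In lung the values were 2070 ± 312 CPM per kb for mt-Co1 and 17.3 ± 2.85 CPM per kb for mt-Co2. The 7 other genes, called outside the stretch here although mt-Nd4 and mt-Co1 are copied in part, held a median of 13.8% of counted reads (heart), 1.57% (lung), 4.60% (kidney) and 2.22% (liver). The 6 genes of the stretch held 0.736%, 0.00945%, 0.0929% and 0.0360%, and the chromosome 1 copies 0.263%, 0.00830%, 0.0491% and 0.0267% in the same order of organs. Reads counted for the copies were thus fewer than those counted for the stretch in the organ medians, and adding them left the stretch far under the 7 other genes. How the counting treated reads with several matching places is not given in the sources used here, and its part in the low levels was not tested. The mt- results below are therefore split into 7 genes outside the stretch and 6 within it.

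**Figure D1:**
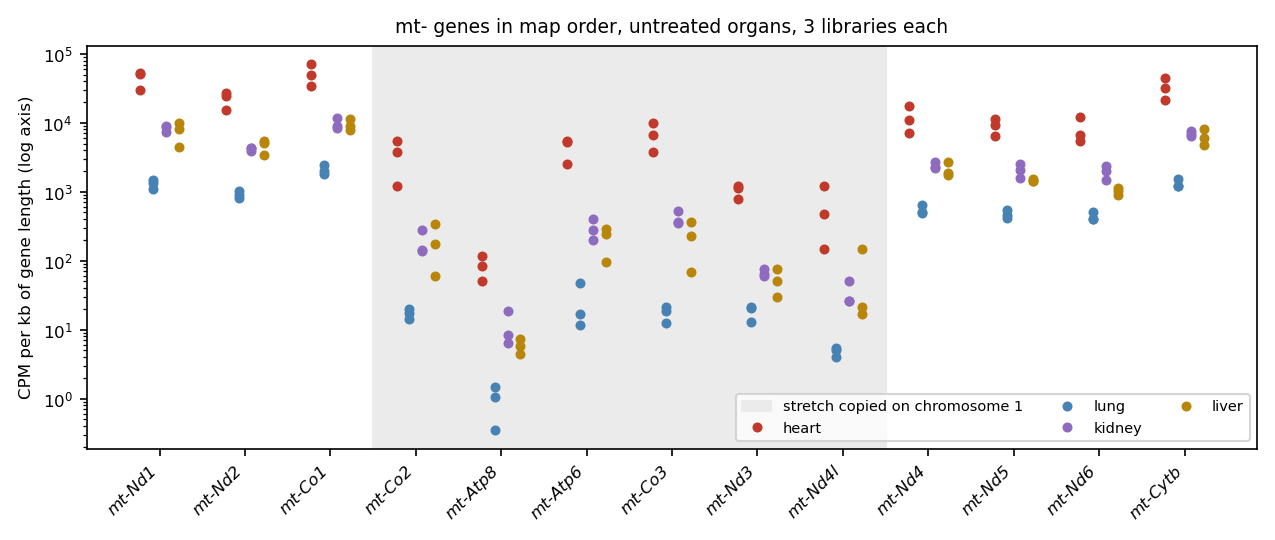
Level of each mt- gene in CPM per kb of gene length (log axis), in the order of the mitochondrial chromosome, with each point 1 untreated library coloured by organ. The 6 genes of the shaded stretch, which has a copy on chromosome 1, lie far below mt-Co1 in every organ (in heart 51600 CPM per kb for mt-Co1 and 3420 CPM per kb for mt-Co2).

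Outside the stretch, the order of the mt- genes was led by mt-Co1, mt-Nd1 (complex I) and mt-Cytb (complex III) in every organ. The untreated heart libraries held mt-Co1 at 33800, 71600 and 49500 CPM per kb. Heart levels of mt-Nd1 and mt-Cytb were 44400 ± 12500 and 32500 ± 11600 CPM per kb. Replicate 1 was the lowest heart library for mt-Co1, and all 3 heart libraries lay above all libraries of the other organs. Next in heart came mt-Nd2 at 22500, the partly copied mt-Nd4 at 11800, mt-Nd5 at 8980 and mt-Nd6 at 8060 CPM per kb, all core subunits of complex I. The annotated mt-Nd5 and mt-Nd6 overlap on opposite strands and mt-Atp8 overlaps mt-Atp6, and without strand their shared reads cannot be told apart. Kidney (mt-Co1 9660 ± 1690 CPM per kb) and liver (9350 ± 1770 CPM per kb) did not differ beyond their spread, and lung was lowest. Within the stretch the spread was wide: mt-Nd4l stood at 149, 1200 and 469 CPM per kb in the heart libraries and at 149, 16.9 and 21.5 CPM per kb in the liver ones.

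Each organ's 3 untreated libraries were compared with the mean log level of the other 3 organs by edgeR's quasi-likelihood test. A gene was called at a Benjamini-Hochberg adjusted p under 0.05 over all genes tested. Only 3 mice were untreated, so the 12 untreated libraries include several organs of the same mouse. The test treated these libraries as independent. In heart all 13 mt- genes were called higher, against 32.5% of all genes called higher, with a median log2 difference of 3.35. In lung all 13 were called lower, against 33.7% of all genes called lower, with a median of -3.08. In kidney none of 13 was called by edgeR, where 33.9% of all genes were called higher and 20.9% lower; 1 had an unadjusted p under 0.05, DESeq2 called 1 (60.0% of all genes) and limma voom 2 (71.2%). In liver 3 of 13 were called lower, against 37.4% of all genes: mt-Nd3 (log2 -1.06, adjusted p = 0.00405), mt-Nd6 (-0.90, 0.00431) and mt-Nd5 (-0.48, 0.0318). The heart difference was 3.08 in the median of the genes outside the stretch and 5.02 within it, and the lung difference -3.01 and -4.60.

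Nuclear respiratory chain genes followed the same order of organs. In heart, 90 of 93 tested were called higher and 1 lower, with a median log2 difference of 2.49 beside 0.03 over all genes. In lung, 4 were called higher and 88 lower, with a median of -2.63 beside 0.01 over all genes. Kidney and liver lay between and close together: 20 genes higher and 6 lower in kidney (median 0.05), and 14 higher and 7 lower in liver (median 0.02). Against the background, 26.1% of all genes were called lower in heart, 37.1% higher in lung, and 29.6% higher in liver. By mean level, 87 of the 93 tested genes were highest in heart and 87 were lowest in lung. The remaining 4 nuclear genes were not tested in any comparison: Cox7b2, Cox8c, Ndufb11b and a second Atp5o entry.

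The size of the organ difference was similar across most complexes. The core subunits of complex I, which carry its redox centres and quinone site, had a median log2 difference of 2.29 in heart and -2.68 in lung, and its accessory subunits 2.62 and -2.56. The assembly factors of complex I, which are not part of the finished complex, differed less: 1.24 and -1.88. Complex II stood at 1.78 and -2.80, complex III at 2.64 and -2.77, the common subunits of complex IV at 2.66 and -2.74 and complex V at 2.64 and -2.78. All 7 core subunits, 30 accessory subunits, 8 assembly factors, 4 complex II genes, 8 complex III genes and 17 tested complex V genes were called higher in heart and lower in lung. Apart from the assembly factor Ndufaf7, at 8.22 CPM per kb in kidney and 7.13 in heart, the genes that were not highest in heart belong to complex IV: Cox6a1, Cox8a, Cox4i2, Ndufa4l2 and Cox6b2.

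In levels per length, the tissue forms of complex IV were split in heart around their median of 921 ± 179 CPM per kb. Cox6a2, Cox7a1 and Cox8b stood above it and Cox4i2, Ndufa4l2 and Cox6b2 far below, so that no gene stood near it. The median gene of the common part of complex IV stood at 580 ± 76.4 CPM per kb in heart. The median complex III gene stood at 708 ± 107 CPM per kb in heart, 39.6 ± 4.46 in lung, 167 ± 12.2 in kidney, with liver at 210 ± 62.8. The median accessory subunit of complex I stood at 248 ± 42.4 CPM per kb in heart and 18.4 ± 2.53 in lung. Atp5a1 and Atp5b, the alpha and beta subunits of the catalytic head of complex V, were at 1830 and 1510 CPM per kb in heart and at 158 and 118 CPM per kb in lung. Sdha, the flavin subunit of complex II, was at 279, 43.3, 203 and 183 CPM per kb in heart, lung, kidney and liver. The kidney and liver values of these genes differ little beside the gap to heart and lung.

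Among nuclear genes outside complex IV, the widest differences belonged to a subunit of the membrane ring of complex V. Atp5g1 differed by 3.95 ± 0.17 (log2 ± SE, adjusted p = 1.65e-09) in heart and by -4.14 ± 0.25 (2.26e-08) in lung. Its levels were 401, 5.97, 50.7 and 57.7 CPM per kb in heart, lung, kidney and liver, where Atp5g2, which codes for the same mature subunit, stood at 235, 38.6, 92.1 and 86.1 CPM per kb. Atp5g3, the other gene for it, stood at 950, 45.8, 313 and 280 CPM per kb and was called lower in lung (-3.25, adjusted p = 7.23e-09). Ndufa12, an accessory subunit of complex I, differed by 3.44 (2.33e-06) and Atp5o, a stalk subunit of complex V, by 3.27 (1.50e-09) in heart. The lung list was completed by Uqcrq (-3.51, 6.69e-08) and the Rieske iron-sulphur protein Uqcrfs1 (-3.31, 3.76e-09) of complex III, Cox7b (-3.29, 1.19e-07) of complex IV and Ndufb9 (-3.27, 1.37e-07) of complex I. For all of these the libraries of the 1 organ did not overlap those of the other 3. The same held for 24.6% of all genes tested in heart and 38.1% in lung.

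Complex IV, cytochrome c oxidase, showed paired genes with opposed organ patterns. Cox6a2, the muscle form of subunit VIa, stood at 3270, 3230 and 3410 CPM per kb in the heart libraries, at 15.8, 25.1 and 24.6 in lung, at 2.90, 1.22 and 0.850 in kidney and at 0.241, 0 and 0 in liver. Cox6a1, the common form, stood at 291, 323 and 309 CPM per kb in heart and at 908, 912 and 1050 in kidney. The heart libraries thus held more Cox6a2 than Cox6a1, and the other organs the reverse. Cox6a1 was the 1 nuclear gene called lower in heart (log2 -0.88 ± 0.16, adjusted p = 3.97e-04), and it was called higher in kidney (1.31, 6.51e-06) and liver (1.11, 1.84e-05).

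Subunits VIIa and VIII also had a muscle form highest in heart, but the common form Cox7a2 was called higher in heart too (log2 2.34, adjusted p = 5.09e-08). Cox7a1, the muscle form, stood at 1550, 1690 and 2230 CPM per kb in heart, at 2.11, 13.4 and 8.03 in lung, at 14.8, 14.4 and 15.3 in kidney and at 3.07, 5.2 and 1.62 in liver, with Cox7a2, the common form, at 596 ± 116, 42.1, 219 and 178 CPM per kb. Cox8b stood at 1900, 2090 and 2980 CPM per kb in heart, at 3.73, 38.6 and 9.15 in lung, at 4.24, 8.74 and 6.28 in kidney and at 0.228, 0 and 0 in liver. Its common counterpart Cox8a was at 394 ± 34.6 CPM per kb in heart, 181 ± 27.1 in lung, 876 ± 69.7 in kidney, with liver at 536 ± 88.5. Cox8a was not called in heart (-0.16). It was the 1 nuclear gene of kidney whose libraries did not overlap those of the other organs (1.38 ± 0.12, adjusted p = 1.26e-06). Of all genes tested, 19.1% did not overlap in kidney. The fitted heart differences were 11.10 for Cox6a2, 10.04 for Cox8b and 7.97 for Cox7a1; where an organ has few reads, as liver has 43 reads of Cox6a2 in 10 of its 17 libraries and 56 of Cox8b in 5, the size depends on the prior count.

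Replicate 2 was the highest untreated lung library for Cox8b (38.6 CPM per kb) and Cox7a1 (13.4 CPM per kb), and also for markers of skeletal muscle and brown fat. Cox6a2 was about as high in replicate 3 (24.6 CPM per kb) as in replicate 2 (25.1 CPM per kb). Summed skeletal muscle markers were 7.34, 49.4 and 14.6 CPM and summed brown fat markers 6.06, 124 and 6.79 CPM in the lung replicates 1 to 3, with cardiomyocyte markers at 256, 628 and 588 CPM. Cox6a2 was called higher in lung (log2 1.45, adjusted p = 0.00976) though far below heart, since the comparison averages the log levels of heart, kidney and liver. The part of the other tissues in the lung levels was not tested.

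A further pair ran the other way, with the rarer form highest in lung. Cox4i2, the lung form of subunit IV, stood at 36.1, 40.4 and 43.8 CPM per kb in lung and at 9.77, 14.0 and 7.61 in heart, with 1.32 in kidney and 0.255 in liver. The lung libraries lay above all others (log2 4.70 ± 0.20, adjusted p = 2.4e-09). The common form Cox4i1 was still higher than Cox4i2 in every organ, at 2090 ± 333, 126, 575 and 466 CPM per kb in heart, lung, kidney and liver. Ndufa4l2, a paralogue of the complex IV subunit Ndufa4, stood at 18, 20.8 and 19.1 CPM per kb in lung and at 16.5, 30.0 and 10.6 in heart. These organs overlapped, and it was called higher in both lung (1.98, 5.63e-06) and heart (1.96, 1.07e-05). Cox4i2 was called higher in heart too (2.13, 7.21e-06), though below lung. Cox6b2, the testis form of subunit VIb, was at 1.96, 5.46, 4.20 and 0.288 CPM per kb, beside 1100, 77.1, 339 and 296 CPM per kb for Cox6b1. It was called higher in lung (2.04, 1.11e-06) and kidney (1.53, 3.5e-05). Cox7b was listed above, and Cox7a2l, which takes part in joining complexes III and IV, was at 229, 87.6, 113 and 114 CPM per kb. The other testis forms were almost silent: Cox7b2 had 31, 9, 3 and 0 reads over all 17 libraries of heart, lung, kidney and liver, and Cox8c had 0 in each organ.

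In liver the 6 tested tissue forms were all called lower, and 6 is also the number of nuclear genes lowest in liver. The differences were -9.36 for Cox8b, -9.07 for Cox6a2, -5.00 for Cox4i2 (adjusted p = 2.5e-07), -4.19 for Cox7a1 (1.23e-04), -3.64 for Cox6b2 (5.36e-07) and -3.19 for Ndufa4l2 (2.58e-06). The genes called higher in liver with the widest differences were Ndufaf1 (1.11, 9.41e-07), Cox6a1 and Ndufaf6 (1.10, 7.81e-05), the first and last of these assembly factors of complex I, then Uqcrq (1.06, 1.98e-04), Sdhd (0.80, 2.13e-04), a membrane anchor of complex II, and Ndufa6 (0.75, 0.00303). In kidney, Cox6b2, Cox8a, Cox6a1, Atp5b (0.74, 9.47e-05), Ndufaf6 (0.73, 0.00245) and Atp5a1 (0.69, 1.37e-04) led the genes called higher. Those called lower in kidney were Cox6a2 (-3.49, 0.0016), Cox4i2 (-1.83, 4.91e-04), Cox7a1 (-1.28, 0.0448), Ndufa4l2 (-0.74, 0.0282), Ndufa7 (-0.42, 0.0302) and Ndufb7 (-0.36, 0.0429).

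The kidney and liver calls depend on how libraries are scaled, while those of heart and lung did not. With library totals in place of TMM factors, the median of all genes moved by -0.29 (heart), 0.86 (lung), 0.26 (kidney) and -0.84 (liver). The nuclear genes called were then 85 lower and 0 higher in liver and 44 higher and 2 lower in kidney, and Sdhd and Ndufa6 turned to -0.0535 and -0.0964 in liver. With RLE factors the kidney split was 14 higher and 12 lower, at a shift of the median of all genes of -0.11. Over 21 alternatives the count of nuclear genes called was 90 to 92 (heart), 89 to 92 (lung), 14 to 46 (kidney) and 18 to 85 (liver); the 14 of kidney came without kidney replicate 3.

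**Figure D2:**
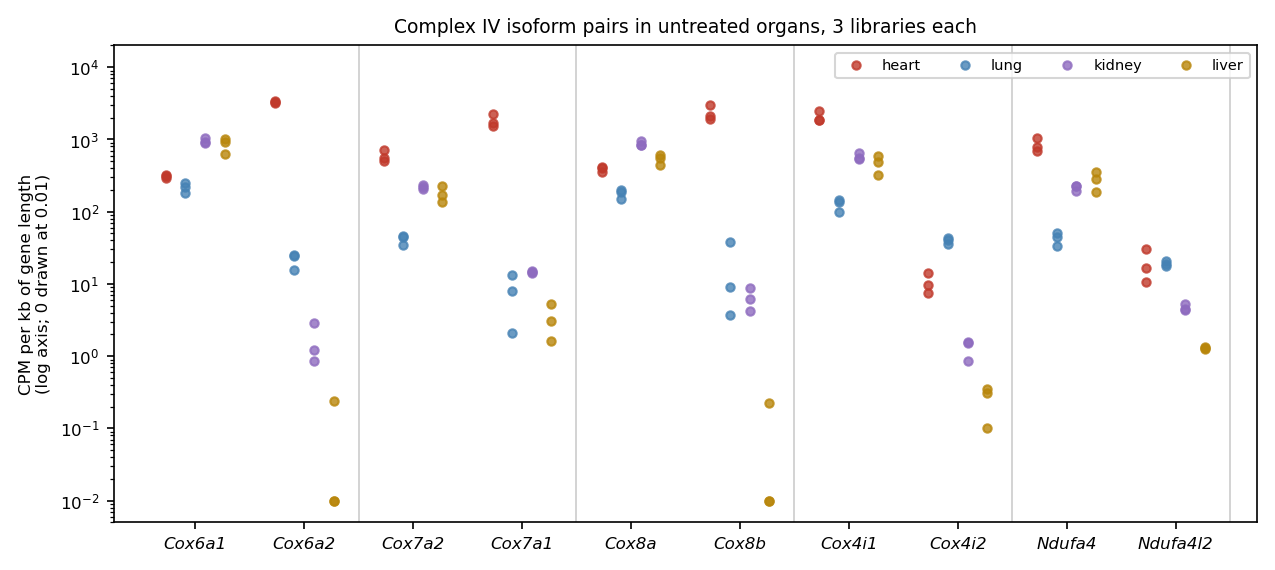
Level of complex IV isoform pairs in CPM per kb of gene length (log axis, values of 0 drawn at 0.01), with each point 1 untreated library coloured by organ. Cox6a2, Cox7a1 and Cox8b lie between 1550 and 3410 CPM per kb in heart and below 40 in the other organs, while Cox4i2 is highest in lung at 36.1 to 43.8 CPM per kb.

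Promoter sequence is shown for the subunit VIII pair as an example, because each gene of it held a match to 1 of the motifs searched and not to the same one. RefSeq promoter windows (250 bases before to 50 after the start, build GRCm38.p6) were found for 77 of the 97 nuclear genes. Cox8a lies on the minus strand (chr19:7217567-7217866) and Cox8b on the minus strand of another chromosome (chr7:140900397-140900696). Capitals mark matches to the ETS letters CCGGAAGT, here on the other strand, in Cox8a, and to the TATA letters TATAAA in Cox8b:

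Cox8a: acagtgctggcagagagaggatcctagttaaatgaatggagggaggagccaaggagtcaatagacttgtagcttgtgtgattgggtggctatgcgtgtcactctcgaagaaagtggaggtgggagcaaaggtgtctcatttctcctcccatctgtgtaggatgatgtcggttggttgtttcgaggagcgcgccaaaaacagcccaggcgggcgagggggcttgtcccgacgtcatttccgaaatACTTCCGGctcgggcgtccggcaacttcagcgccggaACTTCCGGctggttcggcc
Cox8b: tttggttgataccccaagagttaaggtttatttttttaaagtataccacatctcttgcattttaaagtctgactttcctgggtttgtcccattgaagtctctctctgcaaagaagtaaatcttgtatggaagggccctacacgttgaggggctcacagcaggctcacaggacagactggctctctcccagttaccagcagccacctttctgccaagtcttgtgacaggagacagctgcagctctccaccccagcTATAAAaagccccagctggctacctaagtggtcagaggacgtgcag

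The ETS letters stood in 5 of the 77 nuclear genes (6.49%) and in 4.31% of all genes with a window, and the TATA letters in 8 (10.4%) and 15.7%. The palindromic site of NRF1, a regulator of nuclear genes for mitochondrial proteins, was found without mismatch in 7 (9.09%) against 1.07% of all genes. The YY1 site stood in 5 (6.49%) against 0.755%, and the ERR letters TCAAGGTCA in 2 (2.60%) against 0.466%. Both strands were searched and windows of 27025 genes were read. Cox6a1 was among the genes with an NRF1 match, Atp5g3 had an ERR match, and Cox7a1 and Cox7a2 had none of these letters. A match is a description of the letters and shows no binding.

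Egf against vehicle asks what the growth factor changed beyond the injection. No respiratory chain gene was called in any of the 8 comparisons, and the medians of the nuclear genes stayed between -0.29 and 0.07 on the log2 scale. All genes together gave few calls too: 0.211% at 2 h and 0.0128% at 6 h in heart, 0.840% and 0.0% in lung, 0.256% and 0.0% in kidney, and 3.92% and 0.0883% in liver. In edgeR, nuclear genes with an unadjusted p under 0.05 were 2 and 4 of 93 in heart (2 h and 6 h), 0 and 1 in lung, 0 and 0 in kidney, and 0 and 4 of 89 in liver. Of all genes, 7.64% and 10.5% (heart), 8.48% and 5.41% (lung), 7.82% and 6.3% (kidney) and 14.7% and 8.53% (liver) had one. DESeq2 called none of the set in these comparisons, where it called 0.0596% to 5.55% of all genes. Limma voom called 4 nuclear and 4 mt- genes in heart at 6 h, where it called 10.6% of all genes, and none elsewhere. In mt- genes the counts at an unadjusted p under 0.05 were 4 and 3 of 13 in heart, 0 and 6 of 12 in lung, 1 and 0 of 13 in kidney and 0 and 2 of 13 in liver.

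In heart at 2 h the summed mt- genes had a smaller share of the reads after Egf, a sum to which no test was applied. They made up 14.5%, 10.3%, 11.5% and 13.9% of counted reads in the Egf libraries and 16.4%, 14.7% and 18.1% in the vehicle libraries, so that the groups do not overlap (12.5 ± 1.98% and 16.4 ± 1.70%, mean ± SD). At 6 h they made up 13.2%, 15.2%, 13.4% and 15.6% after Egf and 14.4%, 17% and 18.7% after vehicle, and the groups overlap. The 18S share of counted reads also had groups that do not overlap at 2 h, at 1.01 to 1.66% after Egf and 0.537 to 0.803% after vehicle, and the vehicle replicates 1 and 2 held tubule markers at 3970 and 553 CPM beside a heart median of 20.8 CPM; their part in the mt- share was not tested. The untreated heart libraries spread wider than either, at 14.0%, 25.8% and 19.1%. No gene of the set passed the test. The complex I gene mt-Nd1 stood at 29600, 24900, 21200 and 29100 CPM in the Egf libraries of 2 h and at 35100, 44300 and 43100 CPM in the vehicle ones (log2 -0.64 ± 0.22, adjusted p = 0.566). At 6 h mt-Nd1 was at 19800, 29700, 27100 and 25800 CPM against 26900, 45800 and 44100 CPM (-0.60 ± 0.22, 0.466), and limma voom called it (-0.64, 0.0272). Without the heart libraries that held another organ's markers it was -0.72 at 2 h and -0.36 at 6 h, with adjusted p = 0.923 and 0.818; this leaves 4 Egf libraries and 1 vehicle library at 2 h, the lone library being assumed to vary like the other groups, and 2 against 2 at 6 h.

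Genes of the copied stretch gave the largest heart values and the largest errors. The complex I gene mt-Nd3 was at 122, 145, 190 and 203 CPM in the Egf libraries of 6 h and at 181, 505 and 659 CPM in the vehicle ones (-1.44 ± 0.44, adjusted p = 0.466); limma voom called it (-1.92, 0.0113). The complex IV gene mt-Co3 was at 4110, 2990, 1910 and 3810 CPM against 4590, 12900 and 7010 CPM at 2 h (-1.35 ± 0.50, 0.620) and differed by -1.42 at 6 h. In both cases the vehicle libraries differed among themselves by more than any Egf library did from the lowest of them. The within-group SD of log2 levels in heart had a median of 0.66 in the stretch, 0.33 in the other mt- genes and 0.27 in the nuclear genes. Among nuclear genes, the lowly expressed Cox6b2 had the smallest p at 2 h: 1.89, 2.03, 1.74 and 2.07 CPM after Egf and 3.89, 2.76 and 3.17 CPM after vehicle (-0.76 ± 0.25, 0.471).

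**Figure D3:**
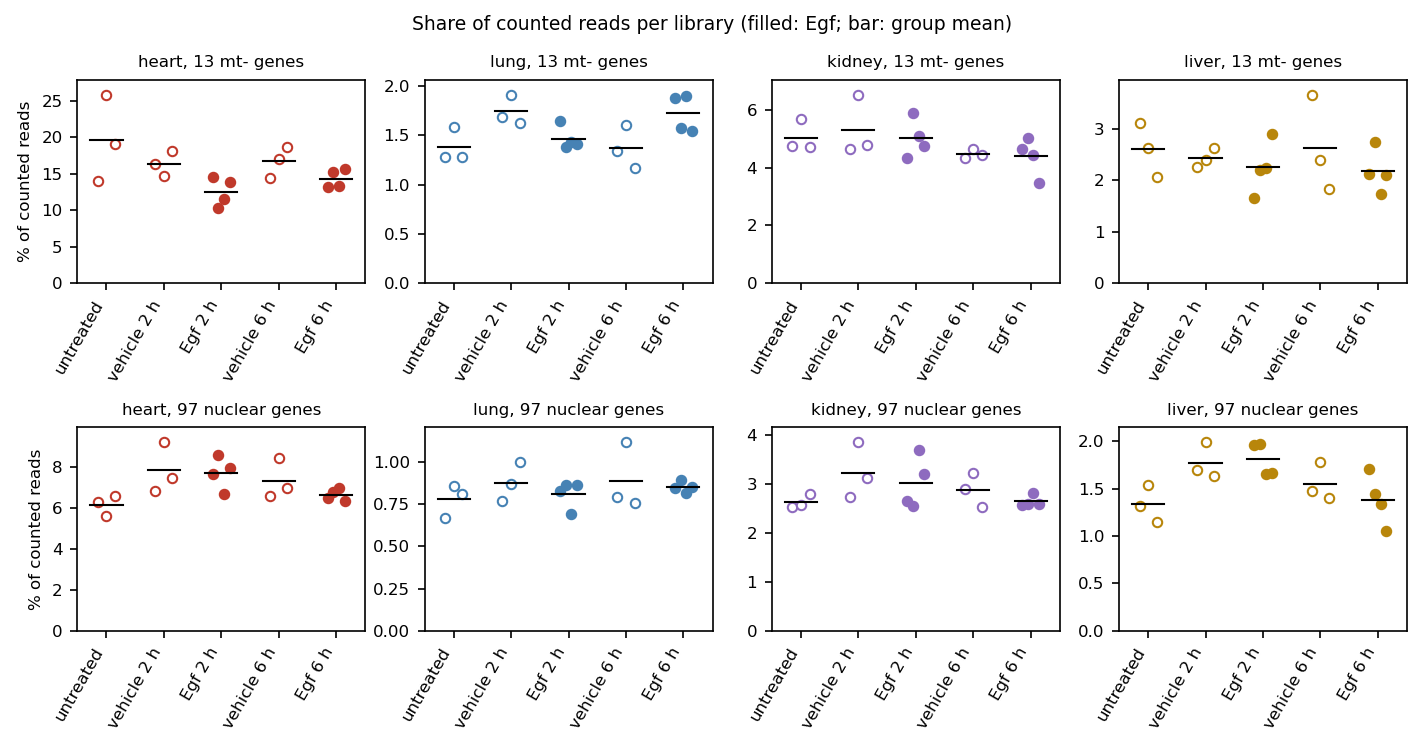
Share of counted reads (%) taken by the 13 mt- genes (top) and the 97 nuclear genes (bottom) in each library, by organ and group, with Egf libraries filled and a bar at each group mean. In heart at 2 h the mt- share is 10.3 to 14.5% after Egf and 14.7 to 18.1% after vehicle, and the untreated heart libraries range from 14.0 to 25.8%.

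Lung gave the opposite sign at 6 h, and the difference between heart and lung was not tested. The mt- share was 1.88%, 1.58%, 1.90% and 1.55% after Egf and 1.34%, 1.61% and 1.17% after vehicle, with groups that overlap. All 6 genes with an unadjusted p under 0.05 were among the 7 outside the stretch, whose median was 0.38; the smallest adjusted p was 0.902. They included mt-Nd4 at 1490, 1190, 1670 and 1300 CPM against 1040, 1270 and 952 CPM (0.37 ± 0.13, adjusted p = 0.902) and mt-Nd6 at 401, 277, 477 and 365 CPM against 289, 250 and 266 CPM (0.50 ± 0.20). The third of the named genes, mt-Nd2, differed by 0.38. Replicate 3 of the Egf group, which held hepatocyte markers, was the highest for mt-Nd4 and mt-Nd6; without it mt-Nd4 was 0.29 (adjusted p = 0.880), mt-Nd6 0.38, and 1 of 12 genes had an unadjusted p under 0.05. At 2 h mt-Nd4 was at 1330, 1260, 1230 and 1140 CPM against 1430, 1520 and 1390 CPM (-0.23 ± 0.13, 0.717), with Cox6b2 at -0.36 (0.636) and the complex I accessory subunit Ndufv3 at -0.20 (0.711).

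Kidney and liver gave no more. In kidney at 2 h, mt-Atp8, a stalk subunit of complex V, was at 1.02, 2.79, 2.35 and 2.59 CPM after Egf and 1.34, 16.1 and 2.67 CPM after vehicle (-1.60 ± 0.72, adjusted p = 0.598), and without vehicle replicate 2 the difference turned to 0.13. Ndufa12 was at -0.71 (0.701) and Ndufaf4 at 0.21 (0.762). At 6 h Ndufa4l2 was at 2.92, 3.41, 3.91 and 3.58 CPM against 4.10, 4.57 and 4.04 CPM (-0.29 ± 0.15, 0.801), with no overlap, Sdhb at -0.19 and mt-Atp8 at -1.25. In liver at 2 h, mt-Atp8 differed by 0.77 (0.439), mt-Nd6 by -0.44 (0.561) and Ndufa8, an accessory subunit of complex I, by 0.24 ± 0.16 (0.552), at 121, 121, 116 and 125 CPM against 108, 93.4 and 105 CPM. At 6 h Ndufab1, the mitochondrial acyl carrier protein and a subunit of complex I, was at 65.5, 49.8, 48.5 and 36.8 CPM against 62.9, 78.5 and 55.6 CPM (-0.39 ± 0.17, 0.559). The liver mt-Co3 values at 6 h, 128, 104, 46.4 and 27.5 CPM against 290, 294 and 64.0 CPM (-1.5 ± 0.66, 0.564), overlap between the groups, and mt-Atp8 differed by -1.21 (0.459).

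The nuclear genes lay on 1 side of 0 in most comparisons, within small values. At 6 h 88 of 93 were negative in heart, 66 of 93 in lung, 87 of 93 in kidney, and for liver 86 of 89, with medians of -0.29, -0.08, -0.19 and -0.29. At 2 h 80 of 93 were negative in heart, 83 in lung and 70 in kidney, with medians of -0.18, -0.09 and -0.06, while in liver 64 of 89 were positive with a median of 0.07. The median standard error of a single gene was 0.19 in heart at 2 h and at 6 h, and 0.21 in liver at 6 h. It was smaller than the size of the 6 h medians of heart and liver. In the other comparisons it was near the size of the median or above. It is not the error of a median over genes. Genes measured in the same libraries are not independent, so that a count of signs is no count of independent results.

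**Figure D4:**
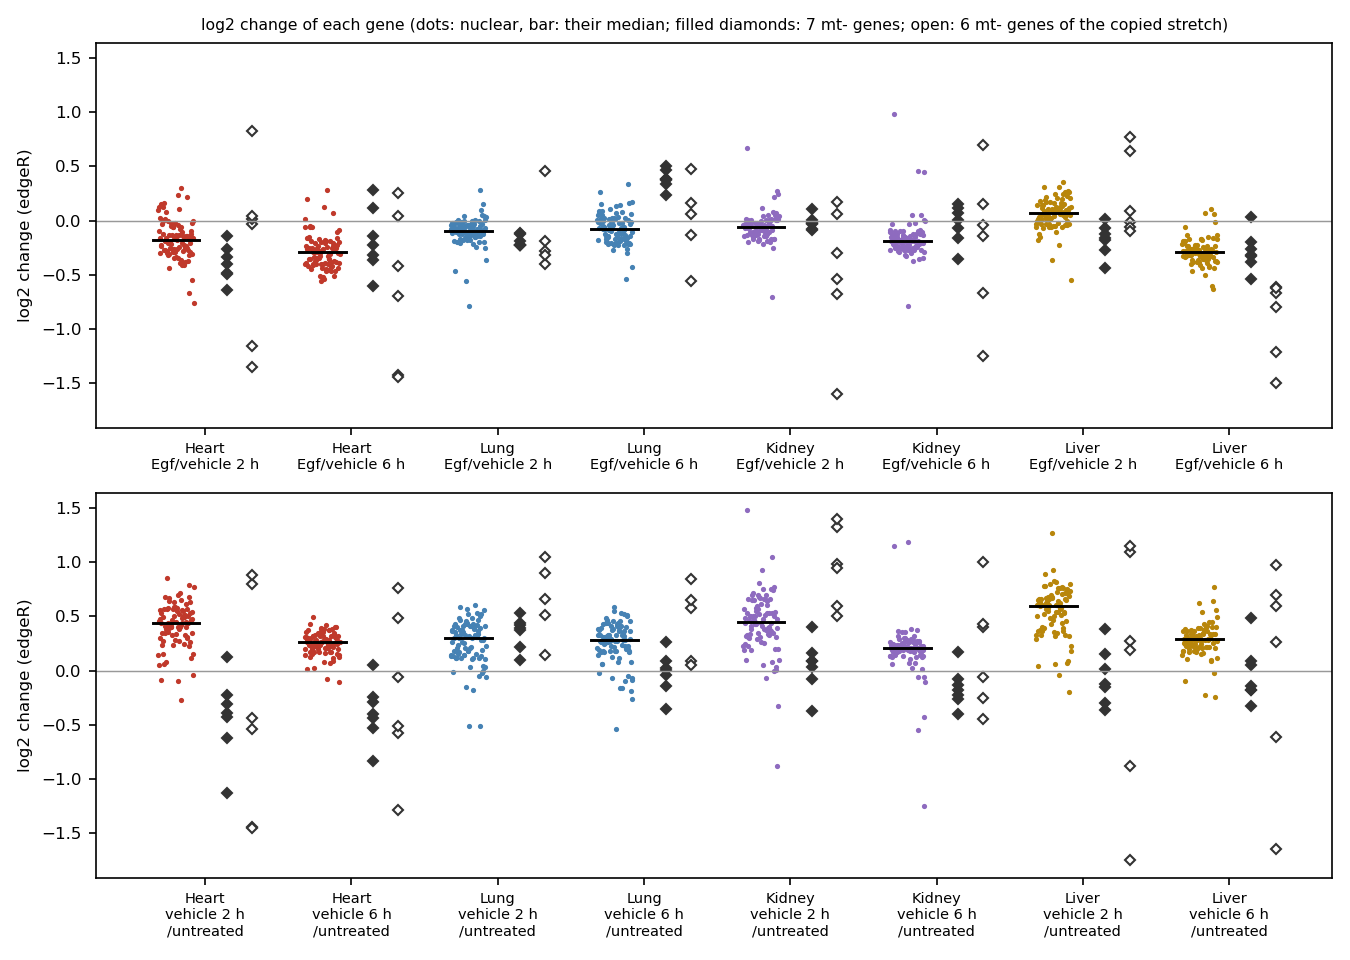
Difference (log2, edgeR) of each respiratory chain gene in the 8 Egf comparisons (top) and the 8 vehicle comparisons (bottom), with dots for nuclear genes, a bar at their median, filled diamonds for the 7 mt- genes outside the copied stretch and open diamonds for the 6 within it. Nuclear medians run from -0.29 to 0.07 after Egf and from 0.21 to 0.60 after vehicle.

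Vehicle against untreated asks what the injection and handling changed; these comparisons share their vehicle libraries with the Egf comparisons, and both times share the untreated libraries. The nuclear respiratory chain genes were higher after vehicle in their medians in all 4 organs, by 0.44 (heart), 0.30 (lung), 0.44 (kidney) and 0.60 (liver) at 2 h, and by 0.26, 0.28, 0.21 and 0.29 at 6 h. At 2 h edgeR called none of them. All genes called made up 0.0128% (heart), 0.0656% (lung), 0.0256% (kidney) and 0.155% (liver) at 2 h, and 0.0192%, 0.101%, 0.211% and 0.670% at 6 h. The nuclear genes with an unadjusted p under 0.05 at 2 h were 41 of 93 in heart, 61 of 93 in kidney, 61 of 89 in liver, and 12 of 93 in lung, where 16.2%, 13.6%, 16.6% and 12.2% of all genes had one. Limma voom called 2 of them in lung (5.22% of all genes), 68 in kidney (18.2%), 24 in liver (3.98%) and 0 in heart (0.0%), and DESeq2 called 1 in liver (1.11% of all genes) and 0 in the other organs.

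The liver at 2 h had the widest of these differences. Uqcrb, a subunit of complex III (chr13:67048681-67053442, minus strand, mm39), was at 86.1, 89.6 and 81.3 CPM after vehicle and at 55.6, 56.7 and 38.2 CPM in untreated liver, with no overlap (0.77 ± 0.19, adjusted p = 0.143); it was called by DESeq2 (0.0215) and limma voom (0.0269). Atp5pb, of the peripheral stalk of complex V, was at 491, 515 and 456 CPM against 304, 370 and 251 CPM (0.66 ± 0.19, 0.192). Sdhb, the iron-sulphur subunit of complex II (chr4:140688514-140706504, plus strand, mm39), was at 310, 347 and 277 CPM against 203, 229 and 188 CPM (0.59 ± 0.17, 0.194). In these 3 genes every vehicle library was above every untreated one. The groups did not overlap for 71 of the 89 tested nuclear genes and for 23.9% of all genes tested. The nuclear genes together made up 1.70%, 1.99% and 1.63% of counted reads after vehicle and 1.32%, 1.54% and 1.15% in untreated liver. Vehicle replicate 2, the highest, also held an 18S share of 0.0126% of counted reads beside a liver median of 2.98%; edgeR called none of the nuclear genes with or without it. With a replicate block, edgeR called 2 nuclear genes.

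Kidney, heart and lung gave the same sign at 2 h with less separation. Ndufa13, an accessory subunit of complex I, was at 192, 321 and 233 CPM after vehicle and 139, 150 and 177 CPM in untreated kidney (0.68 ± 0.23, adjusted p = 0.285). In heart Ndufa13 was at 582, 878 and 692 CPM against 430, 458 and 502 CPM (0.63 ± 0.20, 0.232). Replicate 2 of the vehicle group was the highest in both organs. Ndufa11, another accessory subunit, differed by 0.64 (0.285) in kidney, and Atp5o was at 200, 329 and 228 CPM against 155, 177 and 177 CPM (0.57, 0.289). Cox5b-ps, whose reads may be shared with Cox5b, differed by 0.67 (0.232) in heart and the assembly factor Ndufaf3 by 0.53. Groups did not overlap for 24 nuclear genes in heart (17.3% of all genes), 36 in kidney (18.9%) and 3 in lung (19.1%). In heart, all 3 untreated libraries and the vehicle replicates 1 and 2 held markers of another organ. The part of these markers in the heart values was not tested. In lung Atp5e, a small subunit of the catalytic head of complex V, was at 116, 156 and 189 CPM against 80.2, 119 and 108 CPM (0.58, 0.358).

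The mt- medians differed in sign between organs. At 2 h they were -0.43 (heart), 0.43 (lung), 0.40 (kidney) and 0.01 (liver), and outside the stretch the kidney median was 0.08. By edgeR none was called at 2 h, 3 of 13 in heart, 6 of 12 in lung, 0 of 13 in kidney and 2 of 13 for liver had an unadjusted p under 0.05, and DESeq2 called none. In lung mt-Cytb was at 2940, 3240 and 3120 CPM after vehicle and 2120, 2630 and 2100 CPM in untreated mice (0.44 ± 0.15, adjusted p = 0.300), with no overlap, and mt-Nd4 differed by 0.37 (0.352); limma voom called 5 lung mt- genes, both among them, where it called 5.22% of all genes. In heart at 6 h mt-Co2 was at -1.29 (0.502). The difference between nuclear and mt- genes was not tested.

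At 6 h after vehicle 1 respiratory chain gene was called in the whole set of vehicle comparisons: Ndufaf4, an assembly factor of complex I (chr4:24898083-24905001, plus strand, mm39), in liver. It stood at 40.7, 29.2 and 33.0 CPM after vehicle and at 20.6, 19.0 and 20.6 CPM in untreated liver, without overlap (0.77 ± 0.17, adjusted p = 0.0398), where 0.670% of all genes were called. DESeq2 (0.0025), limma voom (0.0014) and a replicate block (0.0199) called it too; DESeq2 called 2.05% of all genes there and limma voom 5.4%. With only the groups compared in the fit it was not called (0.151), nor when any 1 of the 6 libraries was left out (log2 0.63 to 0.86, adjusted p = 0.0542 to 0.288). Other liver genes were not called: Atp5md, a small subunit of complex V, differed by 0.62 (0.401), and mt-Nd4l was at 5.44, 2.81 and 3.03 CPM against 28.2, 3.15 and 3.98 CPM (-1.64 ± 0.62, 0.280), which turned to 0.08 without untreated replicate 1.

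In the other organs at 6 h, edgeR called no nuclear and no mt- gene. Unadjusted p under 0.05 was reached by 2 nuclear genes of heart, 9 of lung and 2 of kidney, and by 1 mt- gene of heart, 0 of lung and 0 of kidney; limma voom called 1 nuclear gene in heart (5.81% of all genes) and 5 nuclear and 1 mt- gene in kidney (8.76%), and DESeq2 none. Of all genes, 9.32% (heart), 9.8% (lung) and 7.11% (kidney) had an unadjusted p under 0.05. Cox5a, a common complex IV subunit, was at 756, 1050 and 908 CPM against 702, 679 and 748 CPM in heart (0.35 ± 0.15, adjusted p = 0.497), and Sdhc of complex II differed by 0.43 (0.506). Ndufa8 was at 59.8, 77.3 and 56.8 CPM against 45.3, 54.0 and 55.4 CPM in lung (0.33 ± 0.13, 0.435), with the complex I gene Ndufa1 at 0.52 and the complex III gene Uqcr10 at 0.41. In kidney the rare form Cox4i2 was at 0.332, 0.752 and 0.387 CPM against 1.34, 1.37 and 0.749 CPM (-1.24 ± 0.44, 0.452), Ndufa4l2 at -0.43 (0.459) and Sdhb at 0.23.

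Short genes outside the set moved the same way as the nuclear genes in these comparisons. The tested nuclear genes are short, from 360 to 8086 bases with a median of 1569. At 2 h after vehicle, protein-coding genes outside the set of at most 1 kb had medians of 0.33 (heart), 0.26 (lung), 0.36 (kidney) and 0.40 (liver), and those over 8 kb -0.16, -0.10, -0.15 and -0.27. Ribosomal protein genes, also short, had medians of 0.38, 0.44, 0.46 and 0.56. Among the nuclear respiratory chain genes the liver median was 0.64 up to 1 kb, 0.59 from 1 to 2 kb and 0.54 above. From 1 to 2 kb, genes outside the set had medians of 0.20 (heart), 0.14 (lung), 0.16 (kidney) and 0.20 (liver). Nuclear respiratory chain genes of that length had higher medians, at 0.46, 0.33, 0.47 and 0.59. At 6 h, Egf against vehicle showed the reverse sign: -0.23, -0.11, -0.16 and -0.22 in genes of at most 1 kb and 0.23, 0.04, 0.14 and 0.15 above 8 kb. The part of length in the nuclear medians was not tested.

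**Figure D5:**
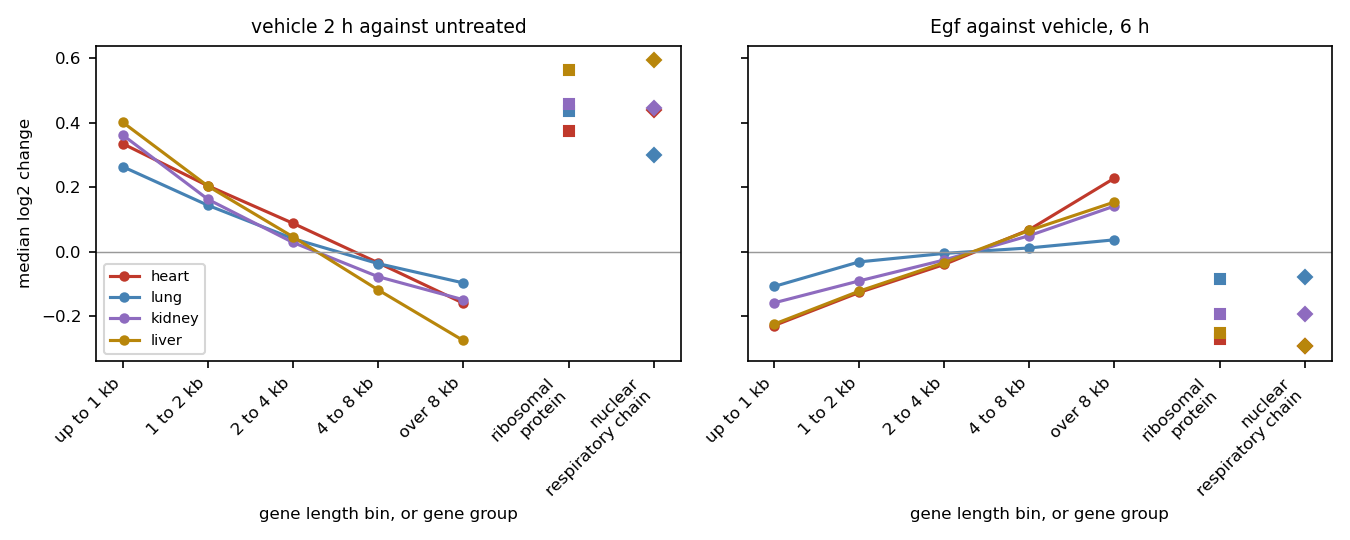
Median difference (log2) of protein-coding genes outside the set by gene length, and of ribosomal protein and nuclear respiratory chain genes, by organ, for vehicle 2 h against untreated (left) and Egf against vehicle at 6 h (right). On the left the medians fall from 0.26 to 0.40 in genes of at most 1 kb to -0.27 to -0.10 in those over 8 kb, and on the right they rise from -0.23 to -0.11 up to 0.04 to 0.23.

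The other genes of the pathway were taken as lists: 31 regulators of mitochondrial biogenesis and of mitochondrial DNA expression, 45 assembly factors and carriers outside the name rule, and 19 genes of the citric acid cycle. In untreated heart 19 of 31 regulators were called higher and 2 lower (Yy1 and Gabpb1), with 33 higher and 1 lower (Ucp2) of 42 tested assembly factors and carriers, and 18 of 19 citric acid cycle genes higher, beside 32.5% of all genes called higher and 26.1% lower. Perm1, a muscle coactivator of oxidative genes, stood at 375 CPM in heart and 3.94 CPM on average elsewhere (log2 7.85), and the nuclear receptor Esrra differed by 2.23, Ppargc1a by 2.03. Slc25a4, the muscle adenine nucleotide carrier, differed by 6.61 and Cycs by 3.25; Pdhb of pyruvate dehydrogenase differed by 2.78. In lung 25 regulators were called lower and 2 higher, with 38 and 2 assembly factors and carriers (Cyc1 at -3.32) and 18 and 0 cycle genes, beside 33.7% of all genes called lower and 37.1% higher. Kidney had 10 of 31 regulators higher, near the 33.9% of all genes, and 0 lower, beside 20.9% of all genes. Those higher included Ppargc1a at 2.37 and Esrrg at 3.18. Of 42 assembly factors and carriers, kidney had 13 higher and 4 lower, and of 19 cycle genes 14 higher and 2 lower. Liver had 15 regulators higher and 7 lower (29.6% and 37.4% of all genes), with Tfam, which packages mitochondrial DNA, at 0.98 and Perm1 at -6.63. Its assembly factors and carriers were 24 higher and 9 lower of 42, and its cycle genes 5 higher and 10 lower of 19. The kidney and liver list calls rest on the same scaling as the calls above, where library totals moved the median of all genes.

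After Egf, edgeR called no gene of these lists in 7 of the 8 comparisons, where 0 to 4 genes of a list had an unadjusted p under 0.05. In liver at 2 h 1 regulator was called higher and 3 lower of 29 tested. Ppargc1a, the coactivator PGC-1alpha, was at 1.59, 2.24, 2.52 and 1.63 CPM after Egf and at 9.90, 5.24 and 9.98 CPM after vehicle (-2.06 ± 0.27, adjusted p = 1.35e-04), where 3.92% of all genes were called. Untreated liver held it at 4.61, 3.91 and 7.32 CPM (vehicle 2 h against untreated 0.66 ± 0.28, adjusted p = 0.269). Polrmt, the mitochondrial RNA polymerase, was at 5.52 CPM against 10.8 CPM (-0.96 ± 0.21, 0.0102) and Twnk, the mitochondrial DNA helicase, at 8.16 CPM against 14.0 CPM (-0.78 ± 0.16, 0.00685). Pprc1, a relative of Ppargc1a, was at 15.1 CPM against 7.87 CPM (0.94 ± 0.26, 0.0496). The mt- genes in the same libraries had a median of -0.07 and none at an unadjusted p under 0.05. In the vehicle comparisons the 1 call was Pdhb in liver at 6 h, at 143, 139 and 118 CPM against 93.1, 79.1 and 82.8 CPM (0.65 ± 0.14, adjusted p = 0.0437).

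Over all 68 libraries, the genes outside the set whose log2 level was most like the summed nuclear genes were Samm50 (Pearson r 0.9957), a part of the outer membrane sorting machinery, Acot13 (0.9934), Gm4459 (0.9924), Ndufab1-ps (0.9922) and Gm10053 (0.9907), of 14859 genes compared. After centring each organ they kept r of 0.8912, 0.7716, 0.8670, 0.8153 and 0.7266. Ndufab1-ps is by its name a copy of Ndufab1, a gene of the set, and their reads may be shared. The genes most like the summed mt- genes were Cycs (0.9719), Gm10053 (0.9706), Mrpl42 (0.9690), Chchd3 (0.9669) and Idh3b (0.9644), and after centring these fell to 0.0661, 0.1016, 0.1646, 0.1306 and -0.1829. For these genes, picked by r over all libraries, the likeness to the mt- sum lay between organs, and that to the nuclear sum also within them. Whether other genes follow the mt- sum within organs is not given by these values. The libraries share depth, organ and length effects, and these values are a description.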

How the data were processed

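RNA of 68 libraries was measured. The authors deposited whole-number read counts per gene in 1 table with gene coordinates and lengths; per the submitters' processing notes, HISAT2 2.0.5, featureCounts 1.5.0-p3 and the build mm39 were used. For trimming, counting options and reads with several matches, the sources used here give nothing. The libraries are not strand-specific, so overlapping genes on both strands share reads, and paralogues and pseudogenes can split them. Depth was 13271813 to 24972005 counted reads. P-values measure the spread between these samples.

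From the counts, edgeR 4.0.16 (R 4.3.3; filterByExpr, TMM, robust quasi-likelihood F test) was fitted on the 17 libraries of each organ, and on the 12 untreated libraries for 1 organ against the mean of the other 3. Benjamini-Hochberg adjustment ran over every gene of a fit, with a call under 0.05. CPM come from each fit's own scaling, so organ levels come from the untreated fit alone. Tests were checked on simulated data with 1 spread for every gene and organ. That spread was narrower than the one estimated in heart, in lung and in the 12 untreated libraries, so the check does not cover these. Alternatives were RLE factors, library totals, scaling without mitochondrial genes, no filter, DESeq2 1.42.0, limma voom 3.58.1, other sets of libraries, a replicate block, leaving out each library, leaving out libraries with another organ's markers and, added after seeing the data, adding the reads of the chromosome 1 copies. Figures used pandas 2.3.3 and matplotlib 3.10.9.

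Genes and lists were chosen with earlier results of these data known. Named were up to 8 nuclear and 4 mt- genes called per treatment comparison (filled to 3 by smallest p), up to 6 each way per organ by size of difference, the isoform genes, up to 4 called genes per pathway list with Ppargc1a, and the 5 genes of most similar level. Other genes were named as examples of a complex after their values were seen.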

Additional observations from a re-analysis of the deposited data

Results flagged for a closer look

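In kidney at 6 h after Egf, the nuclear respiratory chain genes made up 2.83% of counted reads in the highest of 4 libraries and 2.58%, 2.59% and 2.59% in the others. The gap to the nearest library was 0.971 of the group's range, which marked the library as far from the others. Shares of the nuclear and mt- genes and levels of the named genes in the Egf groups gave 40 sets of 4 values, 1 of which was marked, and chance marks about 1 in 20 groups.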

How the results depend on the processing

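Counts of called genes in the treatment comparisons stayed within 1.5 times of the reported value under RLE factors, library totals, scaling without mitochondrial genes, no filter and added copy reads. Limma voom called more: 4 nuclear and 4 mt- genes in heart Egf 6 h, 1 nuclear in heart vehicle 6 h, 2 nuclear and 5 mt- in lung vehicle 2 h, 68 nuclear in kidney vehicle 2 h, 5 nuclear and 1 mt- in kidney vehicle 6 h and 24 nuclear in liver vehicle 2 h. For liver vehicle 2 h DESeq2 called 1 nuclear gene and the replicate block 2. The block moved no other count of calls by over 1.5 times, though Cox7a1 in untreated kidney lost its call (adjusted p = 0.0583); correlations between same-numbered libraries ranged from -0.628 to 0.663 within organs, with medians of 0.02 to 0.086, and not every pair was over 0.1, so the numbers were not taken to pair them. In liver vehicle 6 h the nuclear count was 0 with only the groups compared, and 0 to 0 with any library left out. In untreated kidney the nuclear count was 46 with library totals, 45 with limma voom and 14 to 35 with a library left out, and the mt- count was 1 with RLE factors and DESeq2, 2 with library totals and limma voom, and 0 to 1 with a library left out. In untreated liver library totals gave 85 nuclear and 11 mt- genes. Signs turned for mt-Atp8 in kidney Egf 2 h (-2.09 to 0.13 with a library left out, 0.13 without vehicle replicate 2), mt-Nd4l in liver vehicle 6 h (-2.09 to 0.079 with a library left out, 0.079 without untreated replicate 1), and Sdhd (-0.0535) and Ndufa6 (-0.0964) in untreated liver with library totals. The cause was not tested, apart from the shift of all genes given above. Without libraries holding another organ's markers, heart vehicle and untreated organ comparisons could not be fitted. Depth limits Cox6a2 and Cox8b in liver and the copied stretch in lung.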
